A study of Mus musculus with 2 samples.

Results

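T cells low in regulatory T cell (Treg) markers are T cells that came through a sort for tumour Tregs with few UMIs of the genes that define a Treg. A UMI, a unique molecular identifier, marks one captured RNA molecule. Members were barcodes with at least 500 detected genes, under 10% mitochondrial UMIs and at least 4100 UMIs in all, called kept barcodes. They had at least 2 UMIs of Cd3d, Cd3e and Cd3g together, at most 5 of Foxp3, Il2ra, Ikzf2 and Ctla4 together, at most 1 of Cd8a and Cd8b1, none of Ncr1 and Klrb1c, and at most 3 of Lyz2, C1qa and C1qb. There were 184 members of 8010 deposited barcodes: 121 of 4105 in the cKO library and 63 of 3905 in the WT library. T cells under the same bounds but with at least 6 UMIs of those Treg genes are called Treg-high; there were 2456 in the cKO library and 3126 in the WT library. Levels of the genes in the rule describe the choice of the cells and are no result.

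The study profiled tumour Tregs with a 10x Genomics droplet kit, which reads transcripts of single cells at their 3' ends. The cKO library, labelled JMJD1CTregcKO, came from C57BL/6 mice aged 8-12 weeks with a Treg conditional knockout of Jmjd1c, a gene of the JmjC histone demethylase family, and the WT library, labelled JMJD1CWT, from mice of the same strain and age. Neither the Cre driver and deleted exons nor the tumour type, animal number and sex are stated in the labels. Cells were selected on magnetic beads as Tregs and then sorted on a fluorescent signal that the labels do not name.

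Conventional CD4 T cells and Tregs share the CD4 co-receptor and the alpha-beta T cell receptor. Tregs are marked by the transcription factor FOXP3 and by high surface CD25 (Il2ra) and CTLA-4, and restrain other lymphocytes. Activated conventional CD4 T cells display CD40 ligand (Cd40lg), which licenses B cells and dendritic cells, and in tumours may secrete interferon gamma (Ifng) or acquire cytotoxic genes.

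Each group is 1 library, so no test between groups was possible, and differences have no replicate check. UMIs were summed over the cells of a class, divided by the class total and scaled to CPM, the usual per-library unit of RNA level. Ranges in parentheses after CPM values are exact Poisson 95% intervals, and those after shares are exact binomial (Clopper-Pearson) 95% intervals. Both cover counting error only, not differences between animals, and cells of 1 library are not replicates. Ratios are log2 of CPM + 5 over CPM + 5, Treg-low over Treg-high or cKO over WT, so a value of 1 or more is called at least 2-fold higher.

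The libraries held 37666195 UMIs (cKO) and 49063944 UMIs (WT). Median mitochondrial share was 2.23% in cKO and 1.70% in WT members, and median depth was 5917 UMIs in cKO members and 5581 in WT members, against 6978 and 8752 in Treg-high cells. The libraries also differ in the sex-linked genes: Xist had a UMI in 0.315% of kept cKO barcodes and in 97.8% of kept WT barcodes, while Y-linked genes had one in 77.5% and in 0%. Genotype, sex and library therefore cannot be told apart. The libraries shared 2 kept barcode sequences. Jmjd1c itself had 79.1 CPM (61.8 to 99.7) in cKO members and 145 CPM (117 to 179) in WT members, and 71.0 and 87.8 CPM in Treg-high cells. Since 3' tags may lie outside the deleted exons, this level does not check the genotype label.

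Some member droplets also carried RNA of another cell type. Of the members, 11 of 121 in the cKO library and 8 of 63 in the WT library had at least 20 UMIs of a dendritic cell, stromal or myeloid marker list; these are called mixed droplets, and Treg-high cells held 87 and 177. The members' mixed droplets gave 17.7% and 46.1% of the members' UMIs, and 1 WT droplet of 96173 UMIs alone gave 15.9%. The 8 dendritic cell markers, all of them detected in cKO and 7 in WT members, summed to 7695 CPM in Treg-low and 2409.9 CPM in Treg-high cells of the cKO library, and to 3316 and 1547 CPM in the WT library. A member's median was 0 (cKO) and 1 (WT) UMIs of them. The 10 myeloid markers summed to 551 and 187 CPM (cKO) and to 244 and 81.1 CPM (WT). Of the 10 stromal and tumour markers 9 were at 0 in cKO members, and 3 (Krt8, Mlana and Dct) were at 0 in WT members, where the list summed to 3108 CPM, 99.7% of it in 2 droplets. The marker Cd3e had a UMI in 115 of 121 cKO and 57 of 63 WT members, but it is a gene of the rule, so this is no result. Leaving out mixed droplets turned the direction of some genes' Treg-low to Treg-high ratios or moved them across 2-fold. Both values are given for many of these genes, and only the value without mixed droplets for some.

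The members made up 3.47% (2.89 to 4.13) of the 3488 kept cKO barcodes and 1.72% (1.32 to 2.19) of the 3666 kept WT barcodes. Of the T cells under the same bounds they were 4.70% (3.91 to 5.58) of 2577 in the cKO library and 1.98% (1.52 to 2.52) of 3189 in the WT library. The sort for Tregs can set these shares, and a bound in UMIs depends on depth, which was higher in WT Treg-high cells. With every T cell thinned to 4100 UMIs and the rule applied to the thinned counts, the share of T cells with at most 5 Treg UMIs was 10.3% (9.16 to 11.5) in the cKO library and 10.2% (9.23 to 11.3) in the WT library. The shares differed further down the scale: at most 2 Treg UMIs were left in 4.24% (3.51 to 5.08) of cKO and 2.25% (1.78 to 2.82) of WT T cells, and none in 1.39% (0.980 to 1.91) and 0.360% (0.186 to 0.629). At equal depth the cKO share was thus the higher one at the lowest Treg sums, and at the bound of 5 the libraries' shares differed by less than their counting error.

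**Figure D1:**
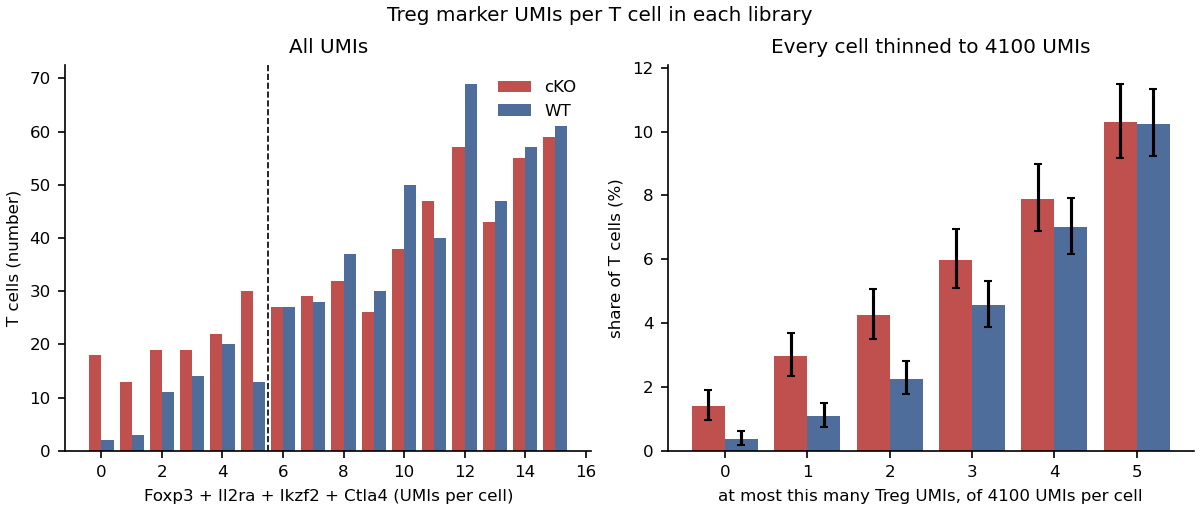
Left: number of T cells (y axis) at each sum of Foxp3, Il2ra, Ikzf2 and Ctla4 UMIs up to 15 (x axis) in the cKO and WT libraries, with a dashed line at the bound of the rule. Right: share of T cells in percent (y axis) with at most the given number of Treg UMIs (x axis) after each cell was thinned to 4100 UMIs, with exact binomial 95% intervals; cKO lies above WT at 0 UMIs (1.39% and 0.360%) and level with it at 5 (10.3% and 10.2%).

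The bound cuts through a continuous range. Exactly 5 Treg UMIs, just inside it, were held by 30 cKO and 13 WT cells, and exactly 6, just outside, by 27 and 27. In the cKO library Tnfrsf4 had 1592 CPM just inside and 1181 CPM just outside, and Cd40lg 44.4 and 29.3 CPM. WT cells had Tnfrsf4 at 1423 and 1292 CPM, and Cd40lg at 9.49 and 14.7 CPM. Among the genes of the rule, Foxp3 had a UMI in 8 of 121 cKO and 7 of 63 WT members, and Ikzf2 (Helios) in 51 and 45. Most members thus held some Treg marker RNA: 18 of 121 cKO members and 2 of 63 WT members had none.

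Members carried Cd4 and T cell receptor RNA within 2-fold of the Treg-high level in both libraries. Cd4 (chr6:124864692-124888221, minus strand, mm10) had 161 CPM (136 to 190.0) in Treg-low and 166 CPM (160.5 to 171) in Treg-high cells of the cKO library. In the WT library it had 130.5 CPM (103 to 163) and 171 CPM (167 to 175), or 221 and 179 CPM without mixed droplets. At 4100 UMIs per cell, Cd4 had a UMI in 44.6% (35.6 to 53.9) of cKO members and 48.3% (46.3 to 50.3) of cKO Treg-high cells. The shares were 42.9% (30.5 to 56.0) and 51.1% (49.4 to 52.9) in the WT library. In myeloid barcodes, which should lack T cell transcripts, they were 0.568% of 176 cKO and 5.71% of 35 WT barcodes, with median depths of 13210 and 14450 UMIs before thinning. A Cd4 UMI was thus missing from about as many Treg-high cells as members.

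Trac, the constant region of the T cell receptor alpha chain, had 747 CPM (692 to 806) in Treg-low and 1303 CPM (1288 to 1318) in Treg-high cells of the cKO library. The WT values were 712 CPM (646 to 782) and 1029 CPM (1018 to 1039), or 1168 and 1064 CPM without mixed droplets. Trbc2, a constant region of the beta chain, was 1507 against 1165 CPM in the cKO library and 573 against 964 CPM in the WT library, or 950.3 against 1008 CPM there without mixed droplets. Trbc2 and its near-identical copy Trbc1 may share reads, so their split is uncertain. At least 1 Trac UMI was present in 116 of 121 cKO and 60 of 63 WT members.

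A few cKO members, and a smaller share of cKO Treg-high cells, carried delta chain RNA of the gamma-delta T cell receptor. In WT members only RNA of gamma chain constant regions was found. Trdc, the delta chain constant region (chr14:54142851-54148868, plus strand, mm10), had 41 UMIs in 5 cKO members, all of which also had Tcrg-C1 UMIs and none of which had a Cd4 or Cd40lg UMI. No WT member had a Trdc UMI, and with a floor of 3 cells, 0 of 63 allows a share of up to 4.76% of members with such a UMI; this limits captured RNA, not expression. Of the 5 cKO members with Trdc, 3 also had a Trac UMI and 1 was a mixed droplet. Before thinning, 11 cKO and 9 WT Treg-high cells had a Trdc UMI, or 0.448% and 0.288%, against 4.13% of cKO members. Leaving aside members with Trdc, 72 cKO and 34 WT members had a Cd4 UMI, and 44 and 29 had neither. The 5 Trdc members summed to 26167 CPM of Ccl5, a chemokine of effector lymphocytes, which 4 of them held, and to 58.7 CPM of Tnfrsf4 (OX40), a receptor of Tregs and activated T cells, from 2 UMIs.

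Cd40lg (chrX:57212143-57224042, plus strand, mm10) was higher in members than in Treg-high cells of the cKO library, and in the WT library its counts were too few to place. It had 55.7 CPM (41.3 to 73.4) in Treg-low and 9.66 CPM (8.41 to 11.05) in Treg-high cells, a log2 ratio of 2.05. In the WT library it had 16.5 CPM (7.92 to 30.4) and 5.25 CPM (4.54 to 6.03), a ratio of 1.07 that rests on 10 UMIs in 4 cells, 6 of them in 1 cell. In the cKO library 50 UMIs came from 32 cells, none with more than 5.

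At 4100 UMIs per cell, 13.2% (7.75 to 20.6) of cKO members and 3.50% (2.81 to 4.31) of cKO Treg-high cells had a Cd40lg UMI. The WT shares were 3.17% (0.387 to 11) and 2.14% (1.66 to 2.71), which differed by less than their counting error. No myeloid barcode of either library had one. Before thinning, the shares of members were 26.4% (cKO) and 6.35% (WT). In the cKO library the Cd40lg level was lower at higher Treg sums: it was 55.1 CPM in cells with 0 to 2 Treg UMIs, 56.1 with 3 to 5, 36.3 with 6 to 10, 11.9 with 11 to 20 and 7.61 above 20. The same classes of WT cells had 0, 23.8, 8.59, 10.1 and 4.40 CPM, the first of them from 16 cells. Of the 32 cKO members with a Cd40lg UMI, 19 had a Cd4 UMI, 11 an Ifng UMI and 19 a Ly6c2 UMI.

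**Figure D2:**
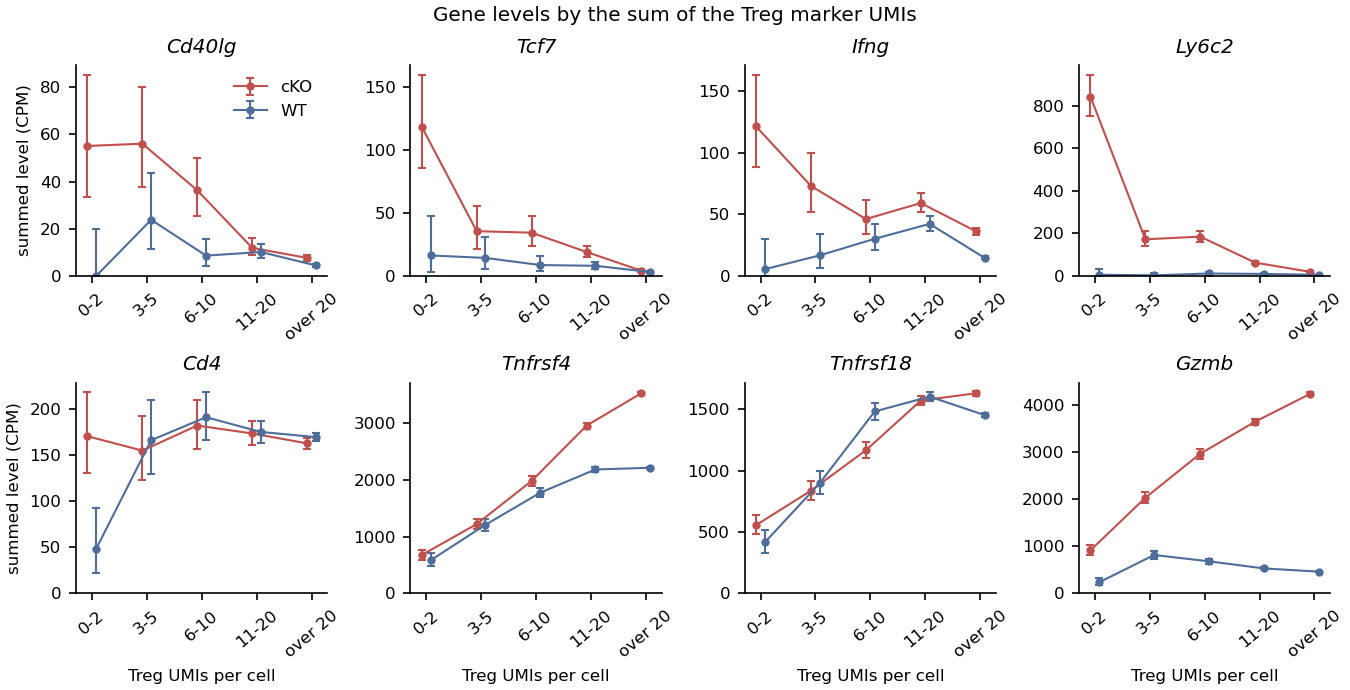
Summed level in CPM (y axes, each from 0) of 8 genes in T cells grouped by their sum of Foxp3, Il2ra, Ikzf2 and Ctla4 UMIs (x axes); the first 2 groups are the members. Points are cKO (red) and WT (blue) with exact Poisson 95% intervals, mixed droplets included; in the cKO library Tcf7, Ifng and Ly6c2 are highest at 0 to 2 Treg UMIs and Cd40lg at 0 to 5, Tnfrsf4, Tnfrsf18 and Gzmb are lowest there, and Cd4 stays between 155 and 182 CPM.

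Treg genes that the rule did not use were lower in cKO members across most of the list, and in WT members for a few genes. Of the 21 such genes listed, 18 averaged at least 20 CPM over the 4 classes of cells. In the cKO library 15 of these were at least 2-fold lower in Treg-low than in Treg-high cells and none higher, with a median log2 ratio of -1.56; over all 5218 genes at that level 2.95% were at least 2-fold lower and 2.13% higher, and the median was -0.09. In the WT library 5 were lower and 2 higher, with a median of -0.67, where 1.55% of all genes were lower, 6.04% higher and the median was 0.02. Without mixed droplets 15 were lower and 0 higher in the cKO library (3.85% and 1.71% of all genes), and 4 lower and 1 higher in the WT library (2.41% and 1.4%). The medians were then -1.48 and -0.21, against -0.10 and 0.01 over all genes. The listed genes vary with the same cells' Treg content as the genes of the rule, so the counts describe the members and are not independent of their choice.

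Ikzf4 (Eos), a transcription factor of Tregs, was lower in members of both libraries. It had 43.4 CPM (30.9 to 59.4) in Treg-low and 218 CPM (212 to 225) in Treg-high cells of the cKO library, and 31.4 CPM (18.9 to 49.0) and 163 CPM (159 to 167) in the WT library; both log2 ratios were -2.20. Without mixed droplets they were -2.21 (cKO) and -1.87 (WT). Ikzf4 was thus far below the Treg-high level in both libraries, and the intervals of the 2 classes did not overlap. Batf, a transcription factor of effector Tregs, had 124 against 344 CPM in the cKO library and 52.9 against 175 CPM in the WT library, with a WT ratio of -1.04 without mixed droplets.

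The costimulatory receptors of the tumour necrosis factor receptor family were lower in cKO members and closer to Treg-high levels in WT members. Tnfrsf4 (OX40) had 1002 CPM (938 to 1070.0) in Treg-low and 3362 CPM (3337 to 3386) in Treg-high cells of the cKO library, a ratio of -1.74. WT cells had 1019 CPM (940.2 to 1103) and 2198 CPM (2184 to 2213), a ratio of -1.11 that moved to -0.48 without mixed droplets. Tnfrsf9 (4-1BB) had ratios of -1.38 in the cKO and -0.53 in the WT library, the second 0.02 without mixed droplets. Tnfrsf18 (GITR) had -1.14 and -0.97, the second -0.21 without them. Members were not free of these receptors: at 4100 UMIs Tnfrsf4 had a UMI in 75.2% of cKO and 95.2% of WT members, against 7.95% and 20% of myeloid barcodes.

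Further Treg genes were at least 2-fold lower in cKO members alone when mixed droplets were left out. Lrrc32 (GARP), which holds latent TGF-beta at the Treg surface, had 21.2 against 111 CPM in the cKO library and 38.0 against 76.4 CPM in the WT library, ratios of -2.18 and -0.21 without mixed droplets. Ebi3, a chain of interleukin 35, had ratios of -2.75 and -0.69 without them, Klrg1, a receptor of differentiated Tregs, -1.90 and 0.03, and Izumo1r (folate receptor 4) -1.53 and 0.69. Over all members Ebi3 was at least 2-fold lower in both libraries. Mixed droplets held none of the WT members' 39 Klrg1 UMIs and 8 of their 136 Izumo1r UMIs, but 46.1% of all their UMIs. Leaving these droplets out therefore raised both levels in WT members. Whether the ratios of the 2 libraries differ was not tested. Il10, the anti-inflammatory cytokine on the same list, had 66.8 CPM (51.0 to 86.0) in Treg-low and 89.6 CPM (85.7 to 93.7) in Treg-high cells of the cKO library, and 129 CPM (102 to 161) and 20.8 CPM (19.4 to 22.3) in the WT library. At 4100 UMIs 23.8% (14.0 to 36.2) of WT members and 5.66% (4.88 to 6.53) of WT Treg-high cells had an Il10 UMI, and 9.92% (5.23 to 16.7) of cKO members and 20.97% (19.4 to 22.6) of cKO Treg-high cells. Without mixed droplets it was the 1 gene of the list at least 2-fold higher in WT members, with a ratio of 3.15. Myeloid barcodes had an Il10 UMI in 1.70% (cKO) and 0% (WT). The WT members' 78 Il10 UMIs came from 17 cells, with at most 12 in any of them.

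**Figure D3:**
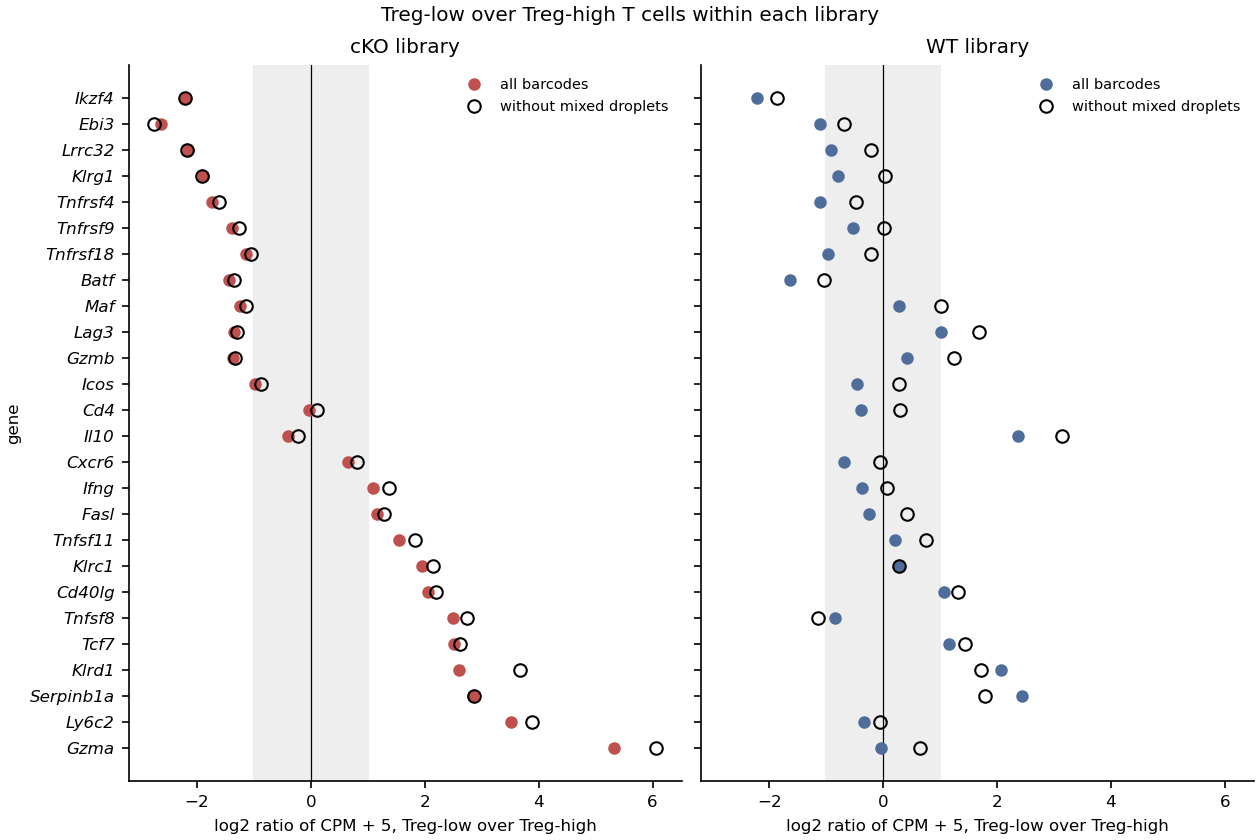
Log2 ratio of CPM + 5 (x axes), Treg-low over Treg-high T cells, of 26 genes (y axis) in the cKO library (left) and the WT library (right). Filled points use all barcodes, open circles leave out mixed droplets, and the grey band spans 2-fold either way; Ikzf4 lies at -2.20 in both, while Gzma and Ly6c2 lie at 5.32 and 3.52 in the cKO library and at -0.04 and -0.33 in the WT library.

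Most cytotoxic genes, and some type 1 genes, were higher in members of the cKO library. Of 8 cytotoxic genes of at least 20 CPM, 6 were at least 2-fold higher and 1 lower in Treg-low than in Treg-high cells of the cKO library (2.13% and 2.95% of all genes), with a median ratio of 2.15. In the WT library 3 were higher and 0 lower (6.04% and 1.55% of all genes), with a median of 0.35. The counts without mixed droplets were 6 and 1 (cKO; 1.71% and 3.85% of all genes) and 4 and 0 (WT; 1.4% and 2.41%). The WT genes counted as higher there include Klrd1 and Klrk1, whose WT ratios rest on few UMIs. Of 12 type 1 genes, 4 were higher and 2 lower in the cKO library and 1 and 1 in the WT library with and without mixed droplets, with medians over all members of 0.59 and -0.34.

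Ifng (chr10:118441046-118445892, plus strand, mm10) had 92.4 CPM (73.6 to 115) in Treg-low and 40.6 CPM (38.0 to 43.3) in Treg-high cells of the cKO library, and 13.2 CPM (5.70 to 26.0) and 18.5 CPM (17.2 to 19.96) in the WT library, or 21.5 against 20.3 CPM there without mixed droplets. At 4100 UMIs 21.5% (14.5 to 29.9) of cKO members and 8.55% (7.47 to 9.73) of cKO Treg-high cells had an Ifng UMI, against 4.76% (0.993 to 13.3) and 5.02% (4.28 to 5.85) in the WT library and 0.568% and 2.86% of myeloid barcodes. Of the 33 cKO members with an Ifng UMI before thinning, 24 had a Cd4 UMI. Il12rb2, a chain of the interleukin 12 receptor, had 94.7 against 36.8 CPM in the cKO library and 24.8 against 15.9 CPM in the WT library, or 46.0 against 16.0 CPM there without mixed droplets. Fasl, the death ligand, had 51.2 against 20.1 CPM (cKO) and 16.5 against 20.7 CPM (WT), or 30.7 against 21.5 CPM in the WT library without mixed droplets. These 3 genes were at least 2-fold higher in cKO members, and in WT members Il12rb2 was so once mixed droplets were left out, with a ratio of 1.28. The type 1 transcription factor Tbx21 (T-bet) stayed within 2-fold in both, with ratios of 0.24 (cKO) and -0.76 (WT). Ccl5 had 2990.2 CPM (2878 to 3105) in Treg-low and 468 CPM (459 to 477) in Treg-high cells of the cKO library. Of the 2685 UMIs of those members, 19.0% lay in 1 cell, and the 5 members with Trdc held 891. At 4100 UMIs 47.1% (38.0 to 56.4) of cKO members and 33.3% (31.4 to 35.2) of cKO Treg-high cells had a Ccl5 UMI. The share of cKO myeloid barcodes was 30.1% (23.4 to 37.5), close to that of cKO Treg-high cells, and that of WT myeloid barcodes 22.9%. In the WT library it had 1387 CPM (1295 to 1484) and 385 CPM (379 to 392), but 81.9% of the members' UMIs lay in mixed droplets, and the ratio was 0.55 without them, against 2.85 in the cKO library. The chemokine Ccl4 went the other way in the cKO library, at 24.5 against 167 CPM, and had 44.6 against 58.7 CPM in the WT library; its cKO ratio of -2.54 turned to 0.21 with the rule applied to thinned counts.

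Ly6c2 (chr15:75108158-75111970, minus strand, mm10) encodes a surface protein of effector and memory T cells and of monocytes, and may share reads with its near-identical neighbour Ly6c1. It had 443 CPM (401 to 489) in Treg-low and 34.0 CPM (31.6 to 36.5) in Treg-high cells of the cKO library, and 3.30 CPM (0.400 to 11.9) and 5.44 CPM (4.72 to 6.23) in the WT library. Myeloid barcodes carried 1277 (cKO) and 901 (WT) CPM, so this gene was also read without mixed droplets: cKO members then had 395 against 22.2 CPM in Treg-high cells. It was highest at the low end of the scale, with 843 CPM in cKO cells of 0 to 2 Treg UMIs and 172 with 3 to 5.

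Klrd1 (CD94), Klrc1 (NKG2A) and Klrk1 (NKG2D) are receptors for class I and class I-like molecules on natural killer and cytotoxic T cells. All were higher in cKO members. In the cKO library Klrd1 had 210.5 CPM (182 to 243) in Treg-low and 30.3 CPM (28.1 to 32.7) in Treg-high cells, and Klrc1 166 and 38.9 CPM. WT cells had Klrd1 at 76.0 CPM (55.6 to 101) and 14.3 CPM (13.1 to 15.5), of which 82.6% of the members' UMIs lay in mixed droplets, and Klrc1 26.4 and 20.8 CPM. Without mixed droplets the Klrd1 ratios were 3.67 (cKO) and 1.72 (WT), and those of Klrk1 3.37 and 2.03. WT members then held 8 Klrd1 UMIs, or 24.5 CPM (10.6 to 48.3). Mixed droplets held 14 of the WT members' 20 Klrk1 UMIs. Both WT ratios thus rest on few UMIs, too few to place these genes firmly in WT members.

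The granzymes, proteases of cytotoxic granules, differed in direction. Gzma had 944 CPM (882 to 1010.1) in Treg-low and 18.8 CPM (17.0 to 20.7) in Treg-high cells of the cKO library, with 848 member UMIs in 18 cells and 35.8% of them in 1 cell. WT members had 3 Gzma UMIs, all in 1 cell, and their ratio to Treg-high cells was -0.04, or 0.64 without mixed droplets. Gzmk was also higher in cKO members, at 57.9 against 1.44 CPM, from 13 cells, with 40.4% of the member UMIs in 1 cell. WT cells had Gzmk at 28.1 against 2.52 CPM, from 4 cells, with 12 of the 17 member UMIs in 1 cell. Gzmb, a granzyme that effector Tregs also use, was lower in cKO members, at 1584 CPM (1502 to 1668) against 4086 CPM (4059 to 4112). In the WT library it had 641 CPM (579 to 708) against 479 CPM (472 to 486). Mixed droplets held 3 of the WT members' 388 Gzmb UMIs, and without them the WT levels were 1180.2 against 495 CPM, a ratio of 1.25; that of the cKO library was -1.33. At 4100 UMIs Gzmb had a UMI in 54.5% of cKO members and 84.8% of cKO Treg-high cells, and in 41.3% and 31.4% of the WT classes.

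CD8 T cells carry the same killer receptor and granzyme genes, and the bound of 1 Cd8 UMI cannot remove a CD8 T cell whose Cd8 RNA was not captured. T cells with at least 2 Cd8a and Cd8b1 UMIs and otherwise within the bounds numbered 434 in the cKO and 273 in the WT library. Of these, 250 and 257 had more than 5 Treg UMIs, with medians of 13 and 4 Cd8 UMIs. At 4100 UMIs a Cd4 UMI was present in 24% and 38.9% of them, and a Ly6c2 UMI in 50.8% and 14.8%. How many of them are CD8 T cells was not tested, and they were left out of the comparisons below. The other 184 cKO and 16 WT barcodes are called Cd8-positive Treg-low cells. They had medians of 14 and 12.5 Cd8 UMIs and of 8106 and 9727 UMIs in all, and a Cd4 UMI at 4100 UMIs in 1.09% (0.132 to 3.87) and 6.25% (0.158 to 30.2).

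Several effector genes had lower levels in cKO members than in the cKO library's Cd8-positive Treg-low cells. Ly6c2 had 443 CPM in members and 1251 CPM (1199.9 to 1305) in those cells, Klrd1 210.5 and 499.7 CPM, and Ccl5 2990.2 and 7297 CPM. Gzma ran the other way, at 944 CPM in members and 434 CPM (404 to 466) in Cd8-positive Treg-low cells. Cd40lg had 55.7 CPM in cKO members and no UMI in the Cd8-positive Treg-low cells of either library, and Cd4 had 161 and 3.95 CPM in the 2 cKO classes. Among the 72 cKO members with a Cd4 UMI, 30 had a Ly6c2 UMI, at 305 CPM, and Klrd1 stood at 201 CPM. Among the 44 with neither Cd4 nor Trdc the levels were 449.6 and 203 CPM. The effector genes were therefore present in members with and without a Cd4 UMI, and how many members are CD8 T cells without captured Cd8 RNA was not tested. Of the natural killer markers, Ncr1, Klrb1c and Klra8 were at 0 in members of both libraries, the first 2 by the rule, and the 7 listed summed to 50.1 CPM in cKO and 18.2 CPM in WT members, and to 7.09 and 3.66 CPM in Treg-high cells.

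**Figure D4:**
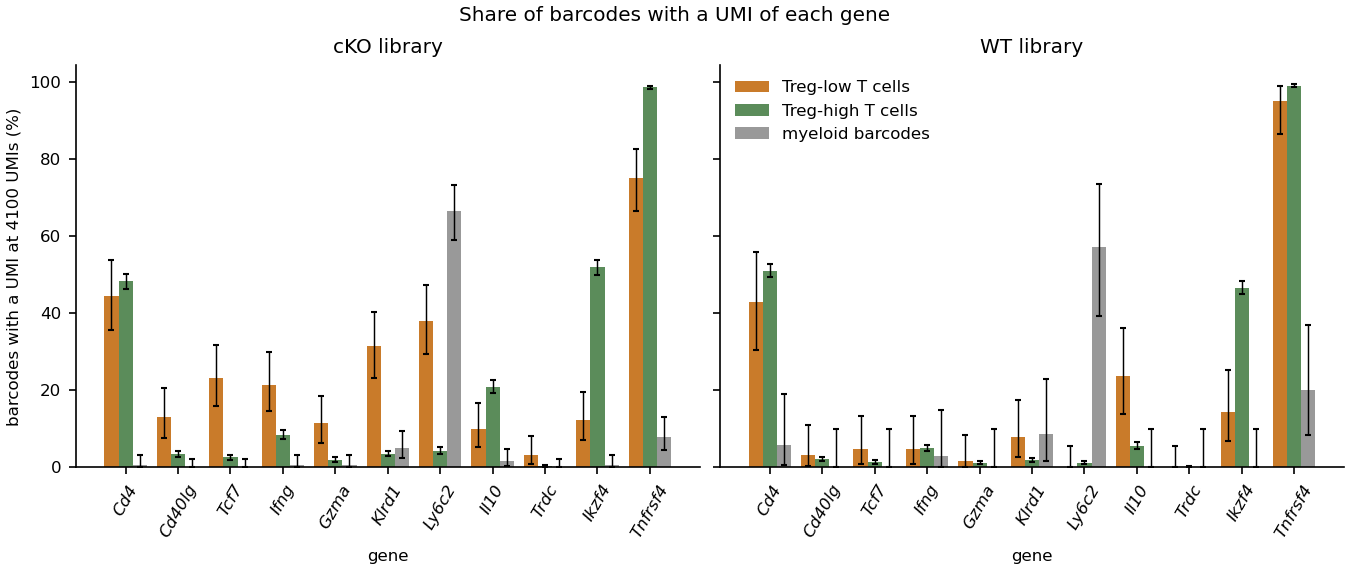
Share of barcodes in percent (y axis) with at least 1 UMI of each gene (x axis) after thinning every barcode to 4100 UMIs, in the cKO library (left) and the WT library (right), with exact binomial 95% intervals. Bars are Treg-low T cells, Treg-high T cells and myeloid barcodes; Cd4 is alike in the first 2, Cd40lg (13.2% and 3.50%) and Tcf7 (23.1% and 2.65%) are higher in Treg-low cells of the cKO library, and Il10 (23.8% and 5.66%) is higher in those of the WT library.

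Genes of naive, memory and recirculating T cells were divided: some were higher in members and others were not. Tcf7 (TCF-1; chr11:52252371-52283014, minus strand, mm10), a transcription factor of naive and memory T cells, had 69.0 CPM (52.9 to 88.5) in Treg-low and 8.04 CPM (6.90 to 9.31) in Treg-high cells of the cKO library, and 14.9 CPM (6.80 to 28.2) and 3.84 CPM (3.24 to 4.52) in the WT library. At 4100 UMIs 23.1% (16.0 to 31.7) of cKO members and 2.65% (2.05 to 3.36) of cKO Treg-high cells had a Tcf7 UMI. The WT shares were 4.76% (0.993 to 13.3) and 1.41% (1.02 to 1.89), and no myeloid barcode had one. Tcf7 was thus higher in cKO members than in cKO Treg-high cells, but Cd8-positive Treg-low cells of the cKO library had it too, at 44.0 CPM (34.8 to 54.9). S1pr1, which guides exit from tissue, had 61.3 against 26.9 CPM (cKO) and 21.5 against 15.7 CPM (WT), or 36.8 against 15.8 CPM in the WT library without mixed droplets. Lef1, a partner of TCF-1, had ratios of 0.97 and -0.24, or 1.13 and 0.30 without mixed droplets. Klf2, which drives S1pr1, had 326 against 225 CPM in the cKO library and 476 against 82.5 CPM in the WT library, or 386 against 86.3 CPM without mixed droplets, from 27 of 63 WT members.

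Ccr7, a chemokine receptor of naive and central memory T cells, was lower in members once mixed droplets were left out. It then had 88.0 against 283 CPM (cKO) and 132 against 351 CPM (WT); with them, 72.3% and 85.5% of the members' Ccr7 UMIs lay in mixed droplets. Il7r, the interleukin 7 receptor, and Cd44, an activation and memory marker, stayed within 2-fold in both libraries, with Il7r ratios of 0.12 and -0.39 and Cd44 ratios of 0.03 and 0.56. Without mixed droplets these were 0.31 and 0.13 for Il7r and 0.12 and -0.01 for Cd44. Of the 9 naive and memory genes, 2 were at least 2-fold higher and 0 lower in cKO members (2.13% and 2.95% of all genes), and 3 and 0 in WT members (6.04% and 1.55%), with medians of 0.36 and 0.36. Without mixed droplets 3 were higher and 1 lower in each library (1.71% and 3.85% of all genes in the cKO library, 1.4% and 2.41% in the WT library), the lower one being Ccr7.

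Of 10 tissue memory genes, 2, Ly6c2 and Itga4, were at least 2-fold higher and 1, Cd27, was lower in cKO members (2.13% and 2.95% of all genes), and 0 and 0 in WT members (6.04% and 1.55%), with the same counts without mixed droplets (1.71% and 3.85%, and 1.4% and 2.41%). Cxcr6, a chemokine receptor of resident T cells, had 483 against 304 CPM in the cKO library and 231 against 373 CPM in the WT library, or 374 against 390.2 CPM there without mixed droplets. Itga4, the integrin alpha 4 chain, had 127 CPM (105 to 153) against 33.0 CPM (30.7 to 35.5) in the cKO library and 173 CPM (142 to 209.9) against 201 CPM (196 to 205) in the WT library. Itga4 was thus low in cKO Treg-high cells, and cKO members stood nearer to both WT classes. Pdcd1 (PD-1), the inhibitory receptor, had 176 against 188 CPM (cKO) and 219.7 against 461 CPM (WT), or 374 against 475 CPM in the WT library without mixed droplets.

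Cytokines of helper and type 17 cells were sparse. Il21 had no UMI in any member, and Il17a 1 UMI in cKO and 0 in WT members. Il2 had 4 UMIs in 4 cKO and 3 in 3 WT members, and Il4 5 and 0 UMIs. Tnf had a UMI in 8.26% of cKO and 7.94% of WT members at 4100 UMIs, below the 18.8% and 22.9% of myeloid barcodes, so no difference is read from it. Csf2 (GM-CSF) had 47 UMIs in cKO members, 45 of them in 1 cell. Of the helper genes, Tnfsf8 (CD30 ligand) had 109 CPM (88.6 to 133) in Treg-low and 15.3 CPM (13.7 to 17.0) in Treg-high cells of the cKO library, with 32.7% of the member UMIs in 1 of 19 cells, and 33.0 CPM (20.2 to 51.0) and 63.1 CPM (60.6 to 65.7) in the WT library, where the ratio was -0.84, or -1.14 without mixed droplets. Tnfsf11 (RANKL) had 95.8 against 29.5 and 54.5 against 46.3 CPM. Cd28, the costimulatory receptor, had 297 against 306 and 192 against 219.6 CPM, or 325 against 228 CPM in the WT library without mixed droplets. Of the 8 helper genes, 3 were at least 2-fold higher and 0 lower in cKO members (2.13% and 2.95% of all genes), and 1 and 0 in WT members (6.04% and 1.55%). The higher one in WT members was Cd40lg, from 10 UMIs in 4 cells, too few to place. Without mixed droplets the counts were 3 and 0 (1.71% and 3.85%) and 1 and 1 (1.4% and 2.41%), the lower one being Tnfsf8.

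Over the 2693 genes outside the rule that averaged at least 50 CPM over the 4 classes, 25 (0.928%) were at least 2-fold higher and 17 (0.631%) at least 2-fold lower in members of both libraries. Taken alone, 2.04% were higher and 3.19% lower in the cKO library, and 4.53% and 1.63% in the WT library. Without mixed droplets the shared counts were 5 and 13, among genes that averaged at least 50 CPM in those levels, so 2693 is not their base. The 25 included H2-Aa, H2-Ab1 and H2-DMb1 of antigen presentation and Tyrobp, Cst3 and Fscn1 of myeloid and dendritic cells. Of a related gene, Cd74, 98.6% of the cKO and 92.3% of the WT members' UMIs lay in mixed droplets. Serpinb1a, an inhibitor of neutrophil serine proteases, was the highest by the ratio nearer to 0 of the 2 libraries: it had 180.4 CPM (154 to 210.4) against 20.8 CPM (18.9 to 22.8) in the cKO library and 54.5 CPM (37.5 to 76.5) against 5.94 CPM (5.19 to 6.77) in the WT library, 29 and 5 members having a UMI. Its ratios without mixed droplets were 2.87 (cKO) and 1.80 (WT). Lgals3 (galectin 3) without mixed droplets had 424 against 143 and 254 against 82.7 CPM. Tmem176a and Tmem176b, neighbouring membrane protein genes known from type 17 cells and dendritic cells, kept ratios of 1.67 and 2.08 in the cKO and 2.05 and 2.18 in the WT library without mixed droplets. Bcl2l11 (BIM), which promotes apoptosis, had 1.14 and 1.04. Without mixed droplets the means of Tmem176a and Tmem176b over the 4 classes were 35.5 and 44.3 CPM, under the 50 CPM asked of ranked genes; among genes above it, Serpinb1a, Klrd1, Lgals3 and Bcl2l11 were the 4 highest.

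The 17 genes lower in members of both libraries included 4 of the Treg list, Ikzf4, Batf, Tnfrsf4 and Ebi3. Penk (proenkephalin) had 41.2 CPM (29.0 to 56.8) in Treg-low and 303 CPM (296 to 311) in Treg-high cells of the cKO library, and 117 CPM (91.6 to 148) and 557 CPM (549.8 to 565) in the WT library. Areg (amphiregulin), a growth factor of tissue Tregs, had 322 against 1310.2 CPM (cKO) and 489 against 1194 CPM (WT). Gata3, a transcription factor of type 2 cells and tissue Tregs, had ratios of -1.26 and -1.19, and Hopx, a homeodomain-only protein of effector and regulatory T cells, -1.91 and -1.32. Without mixed droplets the WT ratios of Areg, Gata3 and Hopx were within 2-fold, at -0.57, -0.85 and -0.68, while Penk stayed at -1.59.

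Between genotypes, cKO and WT members differed in more genes than cKO and WT Treg-high cells. Of 2729 genes that averaged at least 50 CPM over the classes compared, 93 (3.41%) were at least 2-fold higher and 234 (8.57%) at least 2-fold lower in cKO than in WT members. In Treg-high cells 50 of 2651 (1.89%) were higher and 30 (1.13%) lower in cKO. Without mixed droplets 56 and 111 were higher and lower in cKO members, among genes chosen anew at 50 CPM, so 2729 is not their base. Over the 5218 genes of at least 20 CPM the members' shares were 3.09% and 9.35%, or 3.79% and 5.75% without mixed droplets. The members are far fewer, so counting error is larger in them, and the counts were not compared by a test. The lowest gene in cKO members was Col3a1, a collagen of connective tissue, and all 799 of its UMIs in WT members lay in mixed droplets. The median ratio over genes of at least 20 CPM was -0.11 in members.

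Gzma, Ly6c2, Klrc1 and Ifng were among the 10 genes highest in cKO over WT members with and without mixed droplets. Ly6c2 had 443 CPM (401 to 489) in cKO and 3.30 CPM (0.400 to 11.9) in WT members, a log2 ratio of 5.75, against 1.90 in Treg-high cells. Gzma had a ratio of 6.58 in members and 1.21 in Treg-high cells. Ifng had 2.42 and 0.95, and Klrc1 2.44 and 0.77. Pou2f2 (Oct-2), a lymphocyte transcription factor, had 114 CPM in cKO and 8.26 CPM in WT members. Cd8-positive Treg-low cells, which the rule leaves out, numbered 184 in the cKO and 16 in the WT library, and had 1251 CPM (1199.9 to 1305) and 1244 CPM (1085 to 1419) of Ly6c2 and 434 and 989 CPM of Gzma. The part of such cells in the members' difference was not tested. Cd40lg had a ratio of 1.496 in members and 0.52 in Treg-high cells.

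Gzma, Ly6c2, Ifng and Klrc1 had 3, 2, 8 and 16 UMIs in WT members, in 1, 2, 6 and 10 cells. On these few WT counts, their cKO over WT ratios were larger in members than in Treg-high cells. The granzyme gene Gzmb went the other way, with 1.30 in members and 3.08 in Treg-high cells, or 0.51 and 3.08 without mixed droplets. Whether the ratios of the classes differ was not tested. Several genes were higher in cKO members and cKO Treg-high cells alike. Lef1 had ratios of 1.78 and 0.95 without mixed droplets, Satb1, a chromatin organiser of T cells, 1.67 and 1.34, and Serpinb1a 2.32 and 1.25. Others, read without mixed droplets, were higher in one class and lower in the other. Tnfsf8 had 2.08 in members, but -0.36 with the rule applied to thinned counts, and -1.80 in Treg-high cells. Lag3, an inhibitory receptor, had -1.16 and 1.81, Il10 -1.41 and 1.96, and Maf, a transcription factor that promotes Il10, -1.47 and 0.69. Over all members, mixed droplets included, Lag3, Il10 and Maf were lower in cKO by less than 2-fold. Without mixed droplets Maf had 406 CPM in cKO and 1137 CPM in WT members, and 901 and 558 CPM in Treg-high cells. At the low end, Spp1 (osteopontin) had 8.12 CPM in cKO and 279 CPM in WT members without mixed droplets, and Bmyc, a relative of Myc, 17.6 and 156 CPM.

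**Figure D5:**
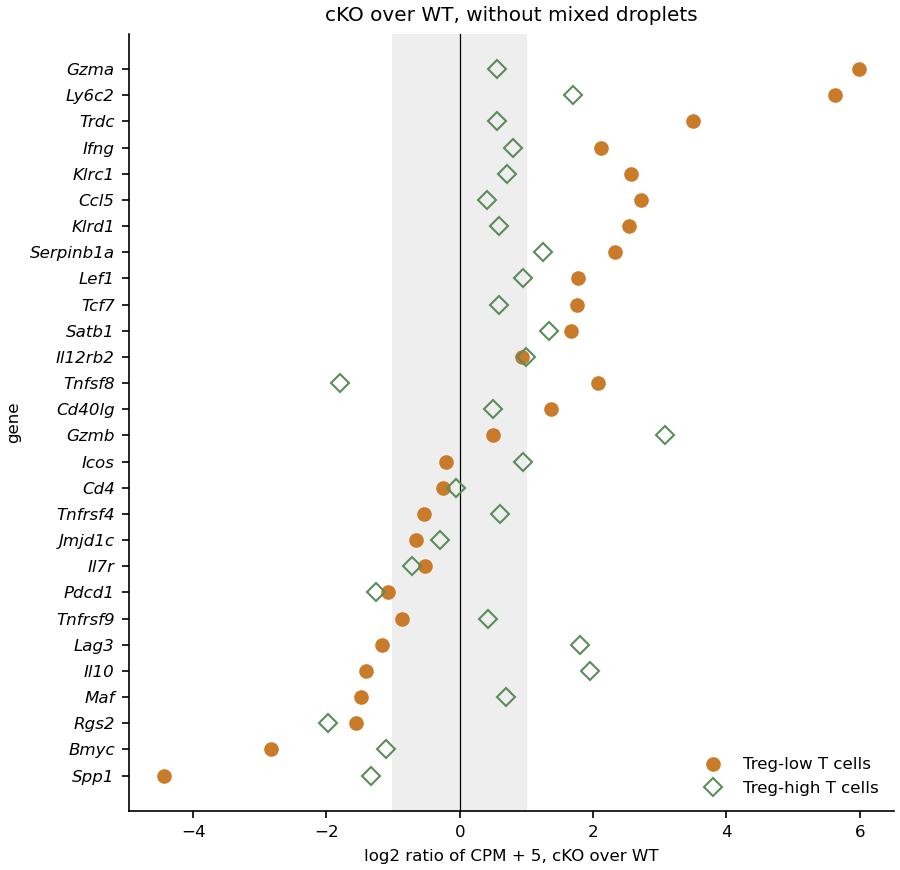
Log2 ratio of CPM + 5 (x axis), cKO over WT, of 28 genes (y axis) in Treg-low T cells (filled circles) and Treg-high T cells (open diamonds), without mixed droplets; the grey band spans 2-fold either way. Gzma (5.99) and Ly6c2 (5.63) stand farthest right in Treg-low cells, Gzmb (3.08) in Treg-high cells, and Il10, Lag3, Maf and Tnfsf8 lie on opposite sides of 0 in the 2 classes.

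The remaining lists, over genes of at least 20 CPM, gave the following counts of genes at least 2-fold higher and lower in cKO over WT members, against 3.09% and 9.35% of all genes, or 3.79% and 5.75% without mixed droplets. Of 8 cytotoxic genes 6 were higher and 0 lower, and of 12 type 1 genes 7 and 0; without mixed droplets 4 and 3 were higher. Of 18 Treg genes outside the rule 1 was higher and 4 lower, or 7 lower without mixed droplets, where the median was -0.90 against -0.09 over all genes. Genes of both effector lists were thus at least 2-fold higher in cKO members with and without mixed droplets, fewer of them without. Of 8 cell cycle genes 4 were lower, and 0 without mixed droplets. Of 10 immediate early genes 1 was higher and 5 lower, and 0 and 0 without mixed droplets. Of 10 interferon-induced genes 3 were higher, and 1 without mixed droplets. Within the WT library 6 of these immediate early genes were higher and 1 lower in Treg-low than in Treg-high cells (6.04% and 1.55% of all genes), and 2, Fos and Jun, higher and 0 lower without mixed droplets (1.4% and 2.41%). Within the cKO library 0 were higher and 1, Myc, was lower (2.13% and 2.95%). Fos and Jun encode transcription factors induced by receptor signals and by handling of tissue. Fos had 190.1 against 63.1 CPM in the WT library and 120.5 against 67.4 CPM in the cKO library without mixed droplets. The B cell, red cell, and mast cell and neutrophil lists summed to at most 21.2 CPM in cKO and 92.5 CPM in WT members.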

How the data were processed

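Droplet 3' gene expression was measured in 1 library each of sorted tumour Tregs from cKO and WT mice. The authors deposited filtered matrices of raw UMI counts per gene and barcode; reads were processed with Cell Ranger 5.0.1 on mm10, per the submitters' processing notes, and the sources used here give no filters beyond cell calling. Gene coordinates come from GENCODE M21 on mm10, matched by Ensembl ID.

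The members and gene lists were chosen with earlier results of these data known. Counts were summed per library and class, scaled to CPM and compared as log2 ratios with a pseudocount of 5 CPM, with no test, since each group has 1 library. Shares used barcodes thinned to 4100 UMIs with a fixed seed; background was read from myeloid barcodes, which had no Cd3 UMI and at least 10 UMIs of Lyz2, C1qa and C1qb. T cells with Cd8 UMIs were split by their Treg UMIs after seeing the data. No doublet caller was run; barcodes with most UMIs or with other cells' markers were left out as alternatives, the second chosen after seeing the data. Exact intervals are at 95% and reflect the members' 897941 (cKO) and 605476 (WT) UMIs.

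Named were the 15 highest and 15 lowest genes by the ratio nearer to 0 of the 2 libraries and the 10 highest and 10 lowest cKO over WT (mean of at least 50 CPM), up to 4 genes of each list by size of ratio (at least 20 CPM), and the identity and cytokine genes. Genes outside this rule, or ranked without mixed droplets, were chosen after their values were seen. Not every gene under the rule is printed, and 1 gene of the naive and memory list is not reported here and was left out of its counts. The summing and ratios were checked on simulated counts. Tools were Python 3.11.15 with numpy 2.4.6, scipy 1.17.1, pandas 2.3.3 and matplotlib 3.10.9.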

Additional observations from a re-analysis of the deposited data

Results flagged for a closer look

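In 3 genes the ratio of Treg-low to Treg-high T cells was past 2-fold in opposite directions in the 2 libraries. The difference between libraries was not tested, since each is 1 library. Ifitm1, an interferon-induced membrane protein, had log2 ratios of 1.76 in the cKO and -1.66 in the WT library, and 2.44 and -0.23 without mixed droplets, which held 76.7% of the cKO members' Ifitm1 UMIs. Il1rl1 (ST2), the interleukin 33 receptor of tissue Tregs and type 2 innate lymphoid cells, had -2.11 in the cKO and 3.66 in the WT library; 391 of the WT members' 393 UMIs lay in 1 mixed droplet, and the ratios were -2.09 and -2.71 without mixed droplets. Lag3 had -1.35 in the cKO and 1.03 in the WT library, and -1.29 and 1.68 without mixed droplets. Its WT value came from 25 of 63 members, with 28.4% of the UMIs in 1 cell.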

How the results depend on the processing

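No paired analysis was possible because each group has 1 library. Of the alternatives run, the pseudocount of 1 CPM and the centring on the median ratio changed no direction. With genes of at least 20 CPM, 46 were higher and 26 lower in members of both libraries, and 165 and 633 in cKO over WT members. With the mean of per-cell CPM those counts were 14, 10, 54 and 88. With the rule applied to thinned counts, members were 7.86% (cKO) and 9.30% (WT) of kept barcodes, 2 genes were lower in members of both libraries, 50 and 39 were higher and lower in cKO over WT members, and the Cd40lg ratio in the cKO library was 1.30. Directions that turned there were Ccl4 in the cKO library (0.21), Lag3 (-0.040), Il1rl1 (-0.52), Ifitm1 (3.06), Col3a1 (-0.13) and Spp1 (-0.18) in the WT library, and Tnfsf8 (-0.36), Fos (0.057) and Col3a1 (0.24) in cKO over WT members.

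With at most 2 Treg UMIs, members were 1.43% (cKO) and 0.436% (WT) of kept barcodes, 13 genes were higher and 83 lower in both libraries, and 268 and 491 in cKO over WT members. The Cd40lg ratio turned to -1.04 in the WT library, with a UMI in 0% of the 16 WT members left, and was 3.59 in cKO over WT members. Ccl5 (-0.39) and Lag3 (-0.99) in the WT library and Csf2 (-0.88) and Cd74 (-0.26) in the cKO library turned too. Without a minimum depth, members were 4.89% (cKO) and 2.39% (WT).

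Without the 5% of barcodes with most UMIs, 50 genes were higher and 109 lower in cKO over WT members, and Il1rl1 (-2.93 WT, 1.99 cKO over WT) and Col3a1 (-0.14 WT) turned. Without mixed droplets, 5 genes were higher in members of both libraries and 56 and 111 higher and lower in cKO over WT; Il1rl1 (-2.71 WT, 1.80 cKO over WT), Col3a1 (-0.15 WT) and Cd74 (-1.90 cKO, -1.38 cKO over WT) turned. With the Treg-high class freed of the Cd8, natural killer and myeloid bounds, 9 genes were higher in both. The alternatives with fewer members leave fewer UMIs behind each level; the cause of the other changes was not tested. The WT values rest on 63 members, so genes under about 20 CPM cannot be placed there.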
